A study of Mus musculus with 2 samples.

Results

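The 6 genes described here mark the step at which presomitic mesoderm is determined and cut into somites: Ripply2, Mesp1, Mesp2, Tbx6, Msgn1 and Epha4. They were chosen by name, with earlier results of these arrays known, and all 6 have probes on the array, among 33008 gene names in all. Ripply2 is listed in the files as C030002E08Rik, an older name that the RefSeq table gives as its synonym on the same chromosome. The label holds for the genes' known roles. RNA from the posterior part of mouse embryos with 13 somites was compared between a Cdx2+/-Cdx4-/- pool, heterozygous for Cdx2 and without intact Cdx4, and a wildtype pool. Each pool held tissue of 7 embryos, cut at the level of the most recent somite boundary. Both pools were hybridised together, in different dyes, to each of 2 oligonucleotide arrays, called replicates 1 and 2. On replicate 1 the mutant pool was labelled with Cy5 and the wildtype pool with Cy3, and on replicate 2 the dyes were exchanged. The labels describe 1 pool per genotype and do not say whether both arrays carried the same RNA extracts. The arrays were read as repeats of 1 comparison, so no test between genotypes was made, and each SD below is the spread of the 2 arrays, which may be wholly technical. The sources used here give no strain, sex or age in days.

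In the vertebrate tail, presomitic mesoderm is laid down by progenitors of the tailbud and is cut from its anterior end into somites. Msgn1, a basic helix-loop-helix factor, and Tbx6, a T-box factor, give the presomitic mesoderm its identity. Together with Notch signalling, Tbx6 switches on Mesp2 in the segment about to form. Mesp2 in turn induces Ripply2, which represses Mesp2 and removes Tbx6 protein, so that the front edge of the Tbx6 domain sets the next border. Mesp1 is the paralog of Mesp2 beside it on the chromosome, known from the first mesoderm of the gastrula and also expressed in the anterior presomitic mesoderm. Epha4 is an Eph receptor kinase downstream of Mesp2 in the front part of the prospective segment.

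Bases before the annotated start of Ripply2, Mesp1 and Mesp2 are shown because Ripply2 and Mesp1 passed the size rule below while Mesp2, the neighbour of Mesp1, did not. The sequences are RefSeq's of GRCm38.p6, 250 bases each, read 5′ to 3′ on the gene's own strand, and all 6 genes matched an entry. Capitals mark matches on either strand to the T-box core AGGTGT, the E-box CANNTG that basic helix-loop-helix factors bind, the Notch effector RBPJ's TGGGAA, or the Cdx site TTTATG. The stretches are chr9:87015287-87015536 on the plus strand, chr7:79793591-79793840 on the minus strand and chr7:79810477-79810726 on the plus strand.
Ripply2: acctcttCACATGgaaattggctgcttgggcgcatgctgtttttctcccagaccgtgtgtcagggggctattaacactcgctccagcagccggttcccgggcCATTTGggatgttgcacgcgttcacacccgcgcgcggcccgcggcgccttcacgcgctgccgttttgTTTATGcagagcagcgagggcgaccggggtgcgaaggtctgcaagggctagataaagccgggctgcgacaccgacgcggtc
Mesp1: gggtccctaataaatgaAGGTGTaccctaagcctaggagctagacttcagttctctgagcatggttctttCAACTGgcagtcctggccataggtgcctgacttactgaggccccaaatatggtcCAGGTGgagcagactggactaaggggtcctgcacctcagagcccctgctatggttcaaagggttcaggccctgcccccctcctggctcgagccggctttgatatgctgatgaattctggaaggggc
Mesp2: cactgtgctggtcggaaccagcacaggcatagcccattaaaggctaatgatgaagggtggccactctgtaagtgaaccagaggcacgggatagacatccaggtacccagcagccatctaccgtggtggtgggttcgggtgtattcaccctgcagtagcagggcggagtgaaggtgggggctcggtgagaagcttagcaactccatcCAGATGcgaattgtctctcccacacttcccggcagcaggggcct

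The Ripply2 stretch held E-box matches from -243 and -148, and a Cdx match from -81 to -76, counted from the base before the annotated start as -1. The Mesp1 stretch held a T-box core from -233 to -228 and E-boxes from -180 and -126. The Mesp2 stretch held an E-box from -44 and none of the other motifs. Of the genes not shown, Msgn1 had 1 match each to the E-box, the RBPJ site and the Cdx site, Epha4 had 1 RBPJ match, and Tbx6 had 0 matches to the 4 motifs. The Cdx site was thus matched both in Ripply2, which passed the size rule, and in Msgn1, which did not. No motif overlapped another. Of 32851 such windows in the table, 11.8% held the T-box core, 66.2% an E-box, 21.6% the RBPJ site and 10.8% the Cdx site. These matches are a description of the letters in these windows.

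Ripply2, the repressor made at the forming border, rose 4.30-fold in the mutant pool. Its mean spot signal was 1343 in the mutant pool and 230 in the wildtype pool on replicate 1, and 737 in the mutant pool and 328 in the wildtype pool on replicate 2. The mutant signal was higher on both arrays whichever dye it carried, and the pools' signals did not overlap. After background correction and loess normalization, replicate 1 gave a log2 ratio of mutant over wildtype of 2.12 and replicate 2 one of 2.09, and the mean was 2.11 ± 0.03 (SD of 2 arrays). A gene is called detected here where, on each array, the same pool stood well above background. Of 26076 detected genes, 1 had a larger mean log2 ratio. That gene was Meox1, a homeobox factor of the somite. In bulk tissue, a change in the number of cells of a type and a change in RNA per cell cannot be told apart. The Ripply2 probe lies at 87467075 to 87467134 on chromosome 9 in the files' coordinates, whose build they do not name, and the sources used here do not say which part of the transcript the probe meets.

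**Figure D1:**
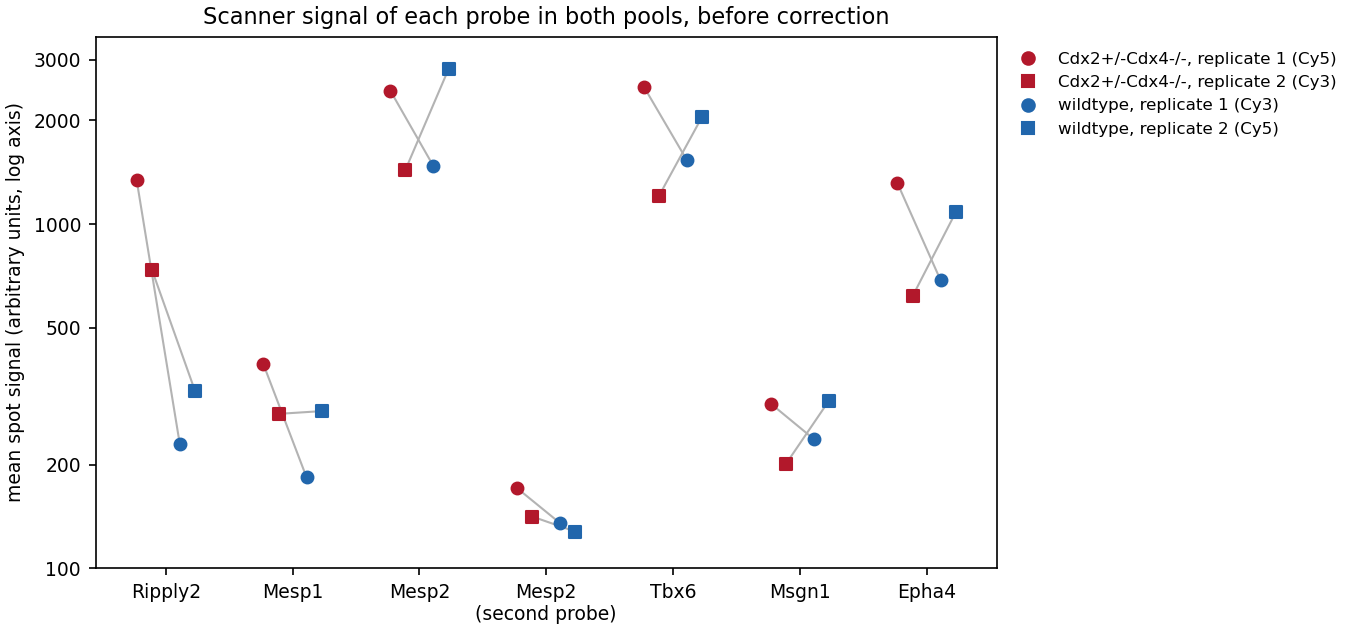
Mean spot signal before any correction (arbitrary units, log axis) of the 7 probes of the 6 genes, with the mutant pool left of the wildtype pool, circles for replicate 1 and squares for replicate 2, and a line joining the pools on each array. The lines of Ripply2 fall to the wildtype side on both arrays, while those of the brighter Mesp2 probe, Tbx6, Msgn1 and Epha4 run opposite ways, the pool in Cy5 being brighter on each array.

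The genes were counted by a size rule: a log2 ratio of at least 0.58, which is 1.5-fold, in the same direction on each array. Of the 6 genes 2 rose, Ripply2 and Mesp1, and 0 fell. Over all detected genes 0.211% were higher and 0.23% were lower by that rule, 55 and 60 genes, or 0.441% in either direction. With median centring in place of loess the split was 27 and 16. Among genes within 0.25 log2 units of a member's mean intensity, the share past the rule in either direction was higher. It ran from 0.55% around Ripply2 to 1.31% around Tbx6. No test stands behind these counts, and the genes were chosen with these ratios in view, so the share of the 6 that passed is not read against that of all genes. The median log2 ratio of the 6 was 0.10, against 8.3e-05 over all detected genes.

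Mesp1, the mesoderm factor paralogous to Mesp2, rose 1.63-fold (mean log2 ratio 0.70, SD 0.15). Its signal was 391 in the mutant pool and 184 in the wildtype pool on replicate 1. On replicate 2 it was 281 in the mutant pool and 286 in the wildtype pool. The raw signals thus differed between pools on replicate 1 and lay close together on replicate 2, where the wildtype pool was in Cy5, the dye with the higher median signal on each array. Normalized, replicate 1 gave a log2 ratio of 0.81 and replicate 2 one of 0.60, so the call on replicate 2 lies just inside the threshold and rests on the dye normalization. Its replicate 2 ratio was 0.52 without background subtraction and 0.21 with median centring, and the call ended under both. The Mesp1 signals were 3.28 to 5.01 times the local background over both pools, while those of Ripply2 were 17.7 and 13.2 times in the mutant pool and 4.26 times in the wildtype pool on both arrays. The probe lies at 66873010 to 66873069 on chromosome 7 in the files' coordinates.

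Mesp2, the master regulator of the segment border, did not pass. Its brighter probe had signals of 2442 and 1438 in the mutant pool, against 1475 and 2821 in the wildtype pool, on replicates 1 and 2. Which pool was brighter followed the dye and not the genotype. The arrays gave log2 ratios of -0.032 and -0.0095, a mean of -0.021 ± 0.016. This probe lies at 66892140 to 66892199 on chromosome 7. Each other probe of the 6 genes spans 60 bases in the files' coordinates. The second Mesp2 probe has coordinates that span 829 bases, from 66891316 to 66892144, and share 5 bases with those of the brighter one. It read 171 and 141 in the mutant pool and 135 and 128 in the wildtype pool, 1.68 to 2.57 times the local background, on arrays whose negative control spots had medians of 91.3 to 113. Its log2 ratios were 0.34 and 0.22, a mean of 0.28 ± 0.08, above those of the brighter probe on both arrays but short of the threshold. The nearest Mesp2 probe lies 18246 bases from the Mesp1 probe, and the Mesp1 log2 ratio was the larger of the pair on each array.

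**Figure D2:**
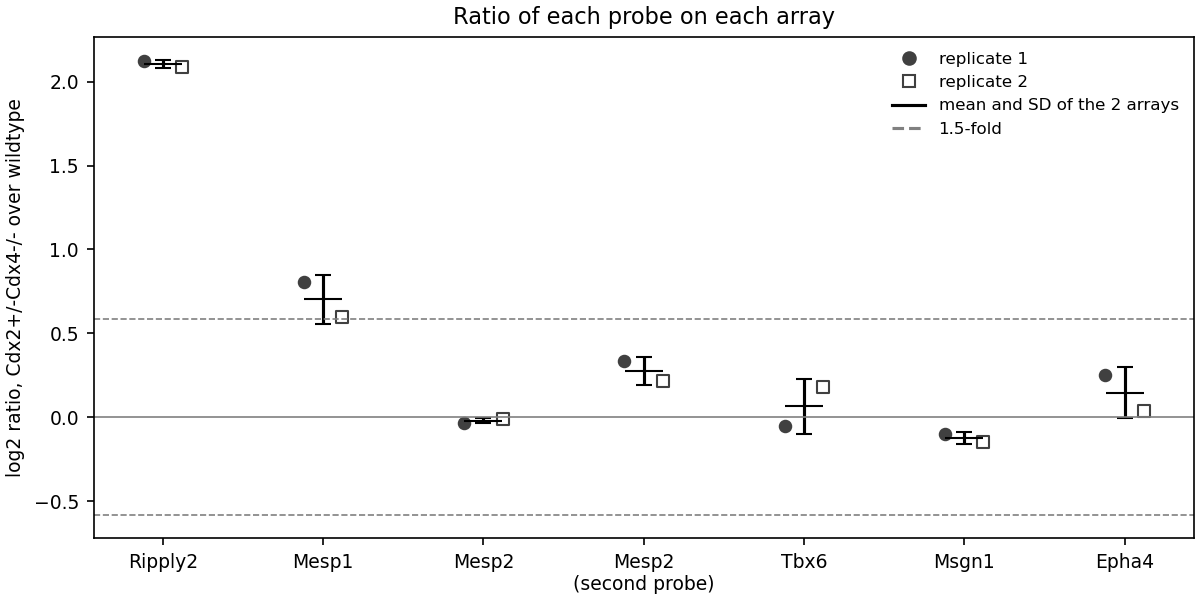
Log2 ratio of the Cdx2+/-Cdx4-/- pool over the wildtype pool for each of the 7 probes, filled circles for replicate 1 and open squares for replicate 2, with the mean and SD of the 2 arrays and dashed lines at 1.5-fold. Ripply2 lies near 2.11 on both arrays, Mesp1 crosses the upper line at 0.81 and 0.60, and the other 5 probes lie between the lines.

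Tbx6, which gives presomitic cells their identity and is needed for Mesp2 expression, did not pass and had no settled direction. Its signals were 2505 and 1208 in the mutant pool, against 1531 and 2051 in the wildtype pool. Replicate 1 gave a log2 ratio of -0.05 and replicate 2 one of 0.18, a mean of 0.06 ± 0.16, so the sign differed between arrays and the mean was smaller than their spread. The signals were 22.0 to 32.5 times the local background over both pools and arrays. The probe lies at 114256410 to 114256469 on chromosome 7.

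Msgn1, the master factor of posterior presomitic mesoderm, did not pass, at a mean log2 ratio of -0.12 ± 0.03. Its signals were 301 and 201 in the mutant pool, against 237 and 307 in the wildtype pool, or 3.72 to 4.24 times the local background. The ratios were -0.10 on replicate 1 and -0.15 on replicate 2, below 0 on both arrays and short of the threshold on each. The probe lies at 11329543 to 11329602 on chromosome 12.

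Epha4, the receptor kinase of the prospective border, did not pass, at a mean log2 ratio of 0.15 ± 0.15. Its signals were 1313 and 618 in the mutant pool, against 686 and 1083 in the wildtype pool. The ratio was 0.25 on replicate 1 and 0.04 on replicate 2, above 0 on both arrays, with a mean about as large as the spread between them. The probe lies at 77881593 to 77881652 on chromosome 1. Of the 6 genes, 3 lay above 0 on both arrays and 2 below, while 23.3% of all detected genes lay above 0 on both arrays and 24.4% below.

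**Figure D3:**
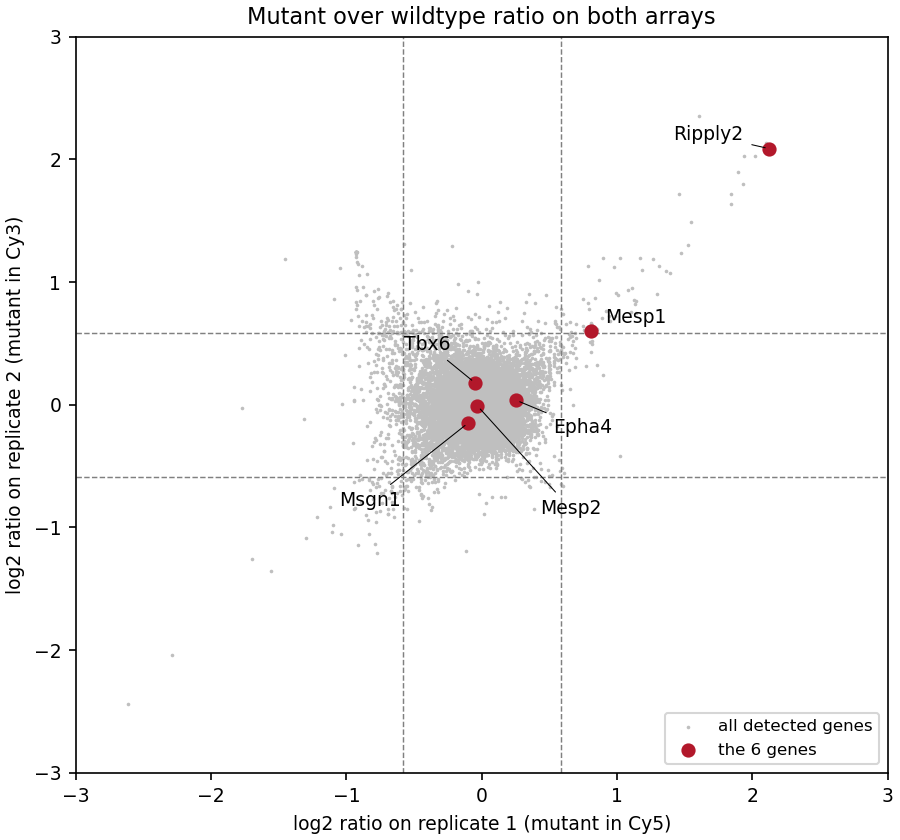
Log2 ratio on replicate 1 (horizontal, mutant in Cy5) against replicate 2 (vertical, mutant in Cy3) for 26076 detected genes in grey and the 6 genes in red, with dashed lines at 1.5-fold. Ripply2 stands at the upper right end at 2.12 and 2.09, Mesp1 lies just inside the corner of the rule, and the other 4 lie within the main cloud.

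In order of mean log2 ratio the 6 genes ran Ripply2, Mesp1, Epha4, Tbx6, Mesp2 and Msgn1. The gap of Ripply2 to Mesp1, 2.11 against 0.70, and that of Mesp1 to Epha4, 0.70 against 0.15, were larger than the SD of either gene. Epha4 and Tbx6 did not differ beyond their spread, nor did Tbx6 and Mesp2. Mesp2 and Msgn1 differed by more than their small SDs, but by less than the SD of 0.19 between arrays pooled over all detected genes. The SD between arrays was smallest for Mesp2 and Ripply2, at 0.016 and 0.026, and largest for Tbx6, at 0.16.

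The way the arrays were processed moved the size of the Ripply2 ratio but not its call. Its log2 ratio was 1.93 and 1.90 without background subtraction, 2.33 and 2.27 with a smaller offset, and 2.47 and 2.42 with the scanner software's own ratio. With median centring, which leaves the brightness-dependent dye effect in place, the arrays gave 2.53 and 1.56. Under that setting the arrays of Mesp2, Tbx6, Msgn1 and Epha4 lay on opposite sides of 0, positive where the mutant pool was in Cy5. For Mesp2 they were 0.46 and -0.68, and for Epha4 0.71 and -0.55.

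**Figure D4:**
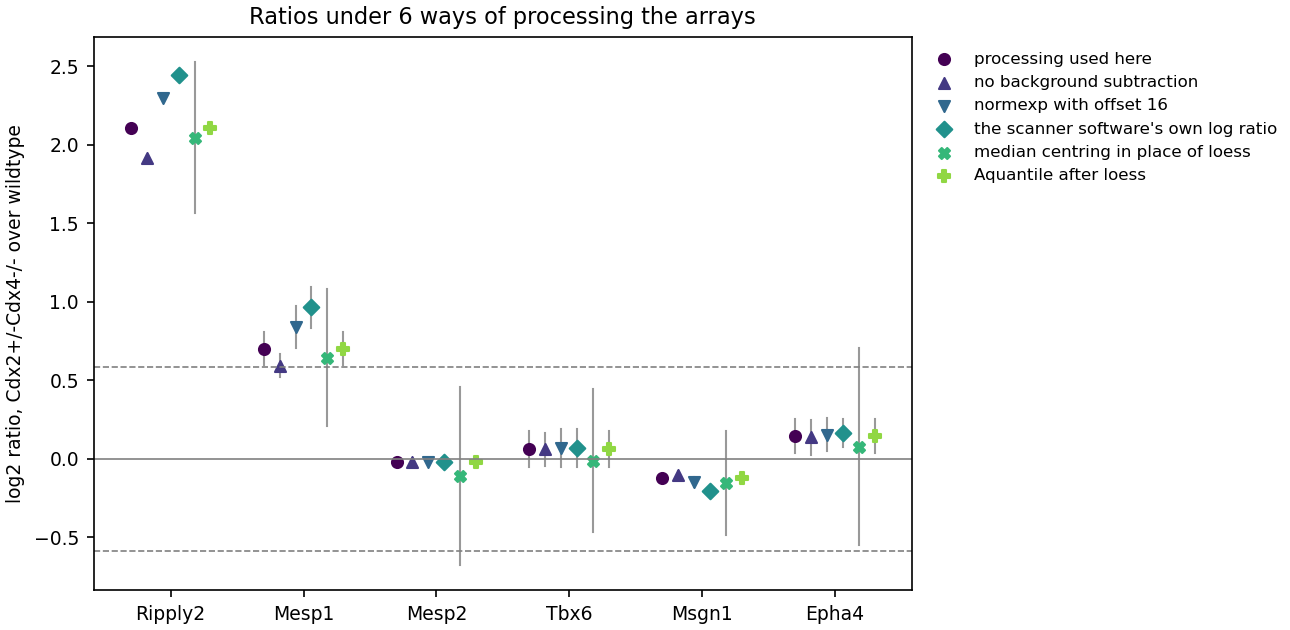
Mean log2 ratio of each gene under 6 ways of processing, a symbol each, with a vertical line joining the 2 arrays and dashed lines at 1.5-fold. Ripply2 stays above the upper line under each of the 6, Mesp1 sits near it, and the lines of median centring are the longest for each gene.

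Genes that mark the segment border and somite polarity were read beside the 6. This list holds several genes already known to be high on these arrays and is not independent evidence of its direction. Of 12 detected members 6 rose and 0 fell, with a median log2 ratio of 0.87. That median was 0.55 with no detection filter and 0.55 without replicate 2. Over all detected genes 0.211% were higher and 0.23% lower by the rule, and each list count below is to be read beside those shares. Meox1 rose 4.34-fold, and Tcf15, a helix-loop-helix factor needed for somites to become epithelial, rose 4.06-fold. Tcf15 had signals of 1123 and 580 in the mutant pool, against 214 and 265 in the wildtype pool. Pcdh8, a protocadherin of the border region that lies downstream of Mesp2, rose 3.96-fold, with 427 and 262 in the mutant pool and 120 and 103 in the wildtype pool. These wildtype signals were well above background on both arrays but lay near the negative controls, which limits the precision of the fold. Cer1, a secreted antagonist found in the front part of the newest somites, rose 3.44-fold, with 360 and 246 in the mutant pool and 113 and 115 in the wildtype pool. The wildtype signals lay near the negative controls, and 1 of these 2 was well above background, so Cer1 counts among the 12 detected genes through the mutant pool alone. The forkhead genes Foxc2 and Foxc1, which in the mouse are required for Mesp1 and Mesp2 expression in presomitic mesoderm, rose 2.56-fold and 2.27-fold. Foxc1 read 1606 and 959 in the mutant pool and 465 and 787 in the wildtype pool. Efnb2, the ephrin of the rear part of the segment that Epha4 can bind, had log2 ratios of 0.55 on each array and stayed just short of the rule. Tbx18, a T-box factor of the front part of the somite and the third measured gene after Ripply2, had 0.13 ± 0.05. Uncx was not detected, and Ripply1 and Cdh2 had no matched probe and were not analysed here.

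The Notch pathway, which acts with Tbx6 on Mesp2, held 1 gene past the same rule. Of 17 detected genes of Notch signalling and the clock, Dll1 rose 1.59-fold and 0 fell, with a median of 0.08, and the call of Dll1 ended with median centring. Dll1, the main Notch ligand of presomitic mesoderm, read 2043 and 1049 in the mutant pool, against 798 and 1243 in the wildtype pool. Below the rule, Notch1 had a log2 ratio of 0.42 ± 0.03, Dll3, a divergent Notch ligand, 0.34 ± 0.11, and Nrarp, a Notch target, 0.30 ± 0.02. Hes1 and Hey1 of the same list had -0.16 ± 0.09 and -0.10 ± 0.09. These 2 of the 17 genes lay below 0 on both arrays, and 8 lay above 0 on both. The clock repressor Hes7 had 0.02 ± 0.23 and the glycosyltransferase Lfng 0.12 ± 0.15, both at signals of 109 to 147, near the negative controls.

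Among 20 detected genes of presomitic specification and progenitor supply, Sox2 rose, Cyp26a1 fell and 18 stayed short of the rule. The list's median log2 ratio was -0.06. Sox2, a neural factor that Tbx6 keeps silent in paraxial mesoderm, rose 1.75-fold, a call that ended with median centring. It read 604 and 384 in the mutant pool and 261 and 357 in the wildtype pool. Cyp26a1, which degrades retinoic acid in the tailbud, had a log2 ratio of -1.04 ± 0.08. T, a T-box factor of the tailbud that acts upstream of Tbx6, and Wnt3a, the ligand that maintains T, Tbx6 and Msgn1, had log2 ratios of -0.49 ± 0.03 and -0.46 ± 0.05 and did not pass. Both lay below 0 on each array, as 9 of the 20 genes did, while 8 lay above 0 on each. Among those above were Lef1, at 0.29 ± 0.08, and Sp5, at 0.29 ± 0.14.

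**Figure D5:**
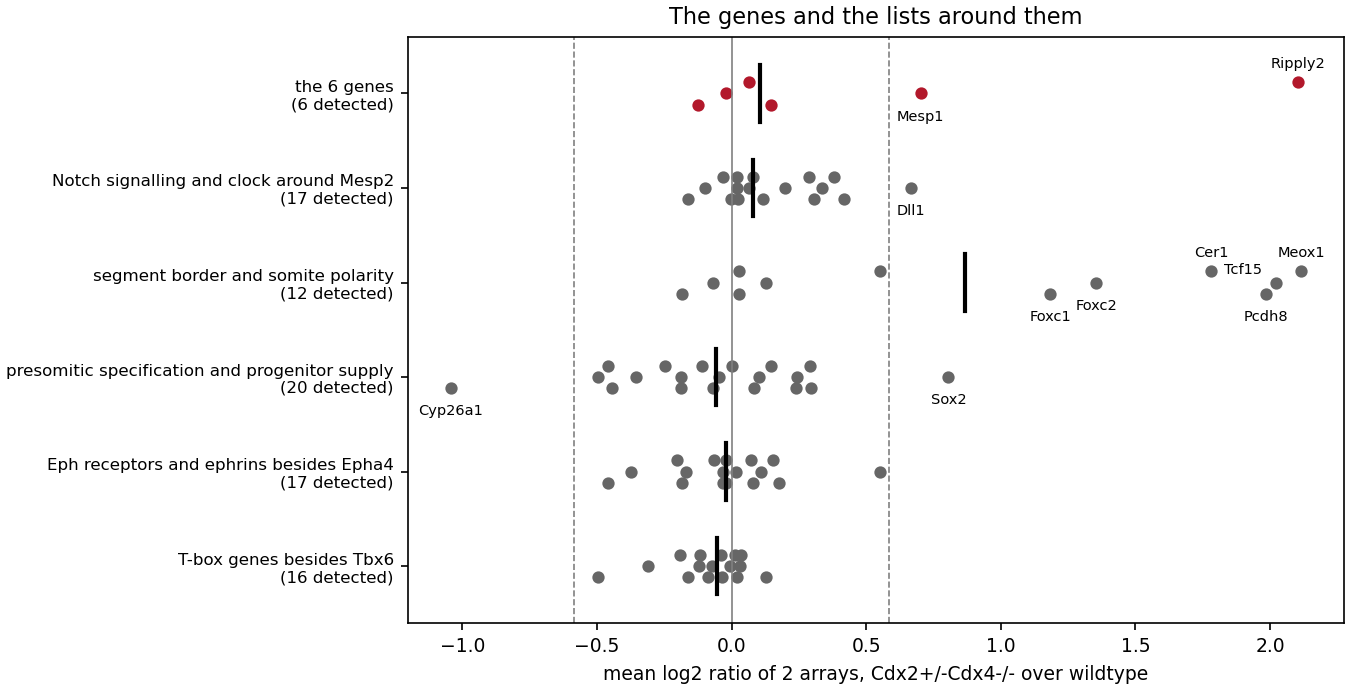
Mean log2 ratio of 2 arrays of each detected gene, one row per list, with the 6 genes on top in red, list medians as black bars and dashed lines at 1.5-fold. In the segment border list 6 of 12 genes lie right of the upper line, as do Ripply2 and Mesp1 in the top row, while the Eph and T-box rows hold no gene past either line.

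The relatives of the 6 genes did not pass, but only 0.441% of all detected genes passed in either direction. Counts of 0 in lists of this size are thus not read as a result about these families. Of 17 detected Eph receptors and ephrins besides Epha4, 0 passed (median log2 ratio -0.021), with Efnb2 at 0.55 and Efna1 at -0.46 ± 0.04 farthest out. Efnb2 passed with the smaller offset and with the software's ratio. Of 16 detected T-box genes besides Tbx6, 0 passed (median -0.05), and T and Tbx3, at -0.31 ± 0.01, had the mean log2 ratios farthest from 0. Ripply3, the paralog of Ripply2, had 0.11 on replicate 1 and -0.10 on replicate 2, at signals of 141 to 166, not far above the negative controls.

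By distance between log2 ratios over the 2 arrays, the detected genes most like Ripply2 were Meox1 (0.05), Tcf15 (0.12), Pcdh8 (0.19), Arg1 (0.30) and Nepn (0.34). Those most like Mesp1 were LOC331325 (0.02), Lum (0.04), Meis1, Postn and Gal (0.05 each). The nearest detected protein-coding genes on either side of the 6, by order in the RefSeq table, numbered 30 besides the members. Of these 0 passed, against 0.441% of all detected genes. The median of the 30 was -0.03. Prss35, the second measured gene before Ripply2, had 0.82 on replicate 1 and 0.52 on replicate 2 and was short of the rule on replicate 2. The direct neighbours of Ripply2, Snap91 and Cyb5r4, had 0.20 ± 0.09 and 0.07 ± 0.22. Anpep, beyond Mesp2, had -0.02 ± 0.05, and Pax3, next to Epha4, 0.02 ± 0.04.

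On the arrays as a whole, 77.4% to 82.5% of 41174 gene spots were well above background in each pool. Cdx4 had log2 ratios of -2.61 and -2.44 on replicates 1 and 2, a mean of -2.52 ± 0.12. It was lower in the mutant pool, as its genotype label has it. Cdx2, heterozygous in the mutant pool by the label, had 0.015 and -0.12, a mean of -0.05 ± 0.09. Its dimmer probe had a mean of 0.0014, so lower Cdx2 RNA was not seen beyond the spread of the arrays. Cdx1 had 0.19 ± 0.09. Of 8 posterior markers, all detected, Cdx4 and Cyp26a1 fell, and the 8 markers' summed normalized signal was 6804 and 6996 in the mutant pool, against 10502 and 10492 in the wildtype pool. T, with the largest signals of the 8, weighs most in these sums. Of the 8 markers 4 lay below 0 on both arrays and 2 above, Cdx1 and Fgf8, the latter at a mean log2 ratio of 0.10. Hoxb9 had 0.09 ± 0.25, so the 8 did not share a direction, and their median log2 ratio was -0.25. Cdx1 read 129 to 148 over both pools, near the negative controls, and Fgf8 and Hoxb9 read 167 to 222. Of 8 somite markers 5 were detected, of which Meox1 and Tcf15 rose, and Pax1, Myf5 and Uncx were not detected. The summed normalized signal of the 5 was 3846 and 3542 in the mutant pool, against 2628 and 2601 in the wildtype pool. Aldh1a2, Pax3 and Meox2 of the same list did not pass, at mean log2 ratios of 0.30, 0.02 and 0.03. Of 8 endothelial markers, all below 0 on both arrays, Cldn5 and Sox18 fell, and the summed signal of the 8 was 2439 and 2209 in the mutant pool against 3679 and 3557 in the wildtype pool. Sox2 was the 1 neural tube marker of 5 detected to rise and Trh the 1 gut marker of 6, and markers of blood, lateral plate, surface ectoderm, forebrain and heart held 0 past the rule. The part of these cell types in the ratios of the 6 genes was not tested, nor was that of the dissection level.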

How the data were processed

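Both arrays set 1 mutant pool against 1 wildtype pool and were grouped by the dyes in the labels. The deposited intensity values are mean spot brightness in Cy3 and Cy5 and median local background, uncorrected, per the file headers. Detrending and LOWESS in the scanner software precede the deposited log10 ratios of Cy5 to Cy3, and each deposited p-value comes from that software's error model for 1 spot, per the file headers. Feature Extraction is given as version 9.5.3 in the submitters' processing notes and as 7.5.1 in the headers.

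Signals were corrected with limma 3.58.1 (R 4.3.3, normexp, offset 50, all 43430 spots) and loess within each array, control spots at weight 0. Non-uniform spots were left out (205 and 90). Spots were averaged to 41013 probes, and the brightest detected probe stood for a gene. A RefSeq table of GRCm38.p6 gave names to 19435 probes through their accession, 3620 through the symbol and 2908 through a synonym. Another 544 matched several genes and got no name, and the rest kept the files' name. A gene passed at 1.5-fold in the same direction on each array. Steps were tested on simulated data. The alternatives were no subtraction, an offset of 16, the software's ratio, median centring, Aquantile, the median over probes, no detection filter, single arrays, other folds and the software's error model at p below 0.05.

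The members and lists were chosen with earlier results of these data known. Named were the members, the Cdx genes, up to 4 genes of a list past the rule or else its 2 largest ratios, the 3 nearest measured neighbours per side, and the 5 genes of most like ratios. Foxc1, Foxc2, Notch1, Dll3, Nrarp, Hes1, Hey1, Hes7, Lfng, Wnt3a, Lef1, Sp5, Fgf8, Hoxb9, Aldh1a2 and Meox2 fall outside this rule and were chosen with their values known. The number of arrays limits the precision.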

Additional observations from a re-analysis of the deposited data

How the results depend on the processing

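No paired analysis was possible because a replicate number here is an array holding both pools, so every ratio is already within a number, and no test was made, since the labels describe 1 pool per genotype and leave unstated whether the arrays share extracts. Of the 6 genes 2 rose and 0 fell with the processing used. The count of risen genes was 1, Ripply2 alone, without background subtraction, with median centring and at 2-fold, and 2 under the other alternatives; 0 fell under any alternative run. Each single array also gave 2, and the software's error model gave 2. The Ripply2 log2 ratio of 2.11 came to 1.92 without background subtraction, 2.30 at offset 16, 2.45 by the software's ratio, 2.05 under median centring and 2.09 to 2.12 on single arrays. Mesp1 was at 0.96 with the software's ratio against 0.70, Msgn1 at -0.21 against -0.12, and Mesp2 at -0.11 with median centring and 0.13 with the median over its probes against -0.021. On single arrays Mesp1 ranged from 0.60 to 0.81, Mesp2 from -0.032 to -0.0095, Tbx6 from -0.05 to 0.18, Msgn1 from -0.15 to -0.10 and Epha4 from 0.04 to 0.25. Tbx6 was at -0.013 with median centring. The median of the 6, 0.10, came to 0.099 without background subtraction, 0.11 at offset 16, 0.12 by the software's ratio, 0.032 under median centring, 0.14 by the median over probes and 0.108 to 0.11 on single arrays. Aquantile leaves ratios within an array as they are.

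Over all detected genes, 55 were higher and 60 lower. These counts became 43 and 38 if no background was subtracted, 80 and 91 at offset 16, 167 and 190 by the software's ratio, and 27 and 16 under median centring. A threshold of 1.3-fold gave 140 and 196, one of 2-fold gave 20 and 7, and the error model gave 146 and 206. Replicate 1 alone gave 93 higher and 467 lower, and replicate 2 alone gave 321 and 128. The split thus turned between the arrays, and on each of them more genes passed towards the pool in Cy3. Of the list counts, the 6 risen in the segment border list became 7 at most and 6 at least, while its median of 0.87 was 0.55 with no detection filter and 0.55 without replicate 2. The Notch count of 1 became 0 with median centring and at 2-fold, 2 at 1.3-fold and 3 by the error model. In the specification list, 1 lower became 2 without replicate 2, 3 at 1.3-fold and by the error model, and 0 at 2-fold, and 1 higher became 0 with median centring and at 2-fold. Eph and ephrin counts of 0 became 1 higher with an offset of 16, with the software's ratio, at 1.3-fold and by the error model, and 1 and 2 lower under those last 2. The T-box count of 0 lower became 1 without replicate 1, at 1.3-fold and by the error model. A lower fold on the same ratios can only add calls, and a higher one can only remove them. The cause of the other changes was not tested. Signals of 1.68 to 5.01 times the local background stood behind Mesp1, Msgn1, the dimmer Mesp2 probe and the wildtype pool of Ripply2.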
